A study of Mus musculus with 6 samples.

Results

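The genes of plasma cells and of antibody secretion were followed across the RNA-Seq libraries of Lin-Sca+Kit+ (LSK) cells, the bone marrow fraction that holds hematopoietic stem cells and multipotent progenitors. The set was a list of 38 symbols, and a gene was taken where the symbol of a listed locus equalled its name, with the longest locus kept where a symbol occurred more than once. By this rule 37 of the 53445 listed loci were members, and the remaining symbol, Mzb1, was not listed. The RNA came from 6 female C57BL/6 mice of about 12 weeks, 3 OgaVav-Cre and 3 wildtype, with 1 library per mouse. OgaVav-Cre mice came from Oga fl/fl mice bred with Vav-iCre, a transgene whose Vav promoter drives Cre throughout the blood lineage, so that Oga, which encodes the enzyme that removes O-GlcNAc from proteins, is deleted in stem cells and in all the blood cells they give rise to. The sources used here do not say which alleles the wildtype mice carried beyond that word. Cells were sorted with a lineage cocktail, antibodies to Sca-1 and c-Kit and a viability dye. Libraries held 19318056 to 27064389 reads on listed loci, so that 3 reads, the floor used here, corresponded to 0.111 to 0.155 CPM, reads scaled to the library total. All other CPM also carry the TMM factor of the library (0.897 to 1.09), edgeR's scaling for the make-up of a library. Mgea5, the symbol under which Oga is listed, held 3.09% of its wildtype mean CPM in the OgaVav-Cre libraries, with 104 to 110 reads against 2736 to 3164, which follows the labels.

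Plasma cells are the end stage of the B lineage and secrete antibody at a very high rate. Prdm1, Irf4 and Xbp1 turn on this state, and the endoplasmic reticulum (ER) grows with it: nascent chains enter through the Sec61 channel, chaperones of the BiP complex and disulfide isomerases fold them, and chains that fail are sent back to the cytosol for degradation. The unfolded protein response (UPR), in which IRE1 splices the Xbp1 mRNA, sets the supply of these ER proteins in every cell type, so many members are housekeeping genes as well. Igj encodes the J chain that joins polymeric IgM and IgA and is a product of antibody-secreting cells, and it was used as the yardstick for the other members. The table counts reads per locus, so spliced and unspliced Xbp1 mRNA were not told apart.

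Promoter letters were available from RefSeq (GRCm38.p6) for 33 of the 37 members, as 41 windows from 250 bases before to 50 bases after a transcription start. Cd28, Derl1, Manf and Sec11c had none. The ER stress response element, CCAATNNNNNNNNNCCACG, read on either strand (as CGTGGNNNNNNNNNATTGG on the other), is the classic site of UPR-regulated chaperone genes. It stood in 6 of the 41 member windows (14.6%) and in 0.119% of the 32851 mouse windows. The 7 stretches below are shown because they are the members with this element, with 20 bases on each side, on the gene's strand, and the element in capitals.
Hspa5: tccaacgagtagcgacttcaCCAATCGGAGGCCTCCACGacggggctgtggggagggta
Hsp90b1, first element: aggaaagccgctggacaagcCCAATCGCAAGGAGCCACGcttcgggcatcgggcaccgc
Hsp90b1, second element: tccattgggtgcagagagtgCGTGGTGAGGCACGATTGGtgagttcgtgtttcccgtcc
Pdia6: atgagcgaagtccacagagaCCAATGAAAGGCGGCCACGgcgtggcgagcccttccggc
Dnajc3: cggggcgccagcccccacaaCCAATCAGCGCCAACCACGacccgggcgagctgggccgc
Creld2: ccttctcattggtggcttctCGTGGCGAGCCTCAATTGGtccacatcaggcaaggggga
Derl3: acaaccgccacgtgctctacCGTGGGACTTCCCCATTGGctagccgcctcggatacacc
They lie at chr2:34772005-34772063 on the plus strand, chr10:86705618-86705676 on the minus strand, chr10:86705513-86705571 on the minus strand, chr12:17266471-17266529 on the plus strand, chr14:118937807-118937865 on the plus strand, chr15:88819500-88819558 on the plus strand and chr10:75893222-75893280 on the plus strand (GRCm38.p6). The elements began 65 (Hspa5) to 212 (Hsp90b1) bases before the start. Of these 6 genes, Derl3 alone was called for a slope on Igj in the test below. The other 5 were not, with slopes from 0.010 (Dnajc3) to 0.39 (Creld2).

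A shorter UPR element, TGACGTGG (CCACGTCA on the other strand), stood in 3 of the 41 windows (7.32%), against 0.676% of all windows. The stretches are printed in the same way, again because these are the members that hold it.
Txndc5: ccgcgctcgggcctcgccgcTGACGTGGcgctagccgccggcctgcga
Txndc11: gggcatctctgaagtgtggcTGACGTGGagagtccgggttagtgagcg
Pou2af1: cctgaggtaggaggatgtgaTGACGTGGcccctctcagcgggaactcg
They lie at chr13:38528025-38528072 on the minus strand, chr16:11134607-11134654 on the minus strand and chr9:51213609-51213656 on the plus strand (GRCm38.p6). Txndc5 was called for its slope on Igj, and Txndc11 and Pou2af1 were not. The core CCACG, which both elements contain on one strand or the other, stood in 25 of the 41 member windows (60.98%) and in 32.8% of all windows. A match of letters is a description of the window and does not show that a factor binds there.

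Igj varied widely between mice of 1 genotype. It stood at 9926, 4916 and 1186 CPM in OgaVav-Cre replicates 1, 2 and 3 and at 2279.7, 6974 and 1365 CPM in wildtype replicates 1, 2 and 3, an 8.4-fold range, with both ends of the range in OgaVav-Cre mice. By raw reads it held 0.120% (95% Wilson interval 0.1188 to 0.1214%, counting error only) to 0.889% (0.8849 to 0.8923%) of a library. The OgaVav-Cre over wildtype difference was 0.59 ± 0.79 (log2, SE, adjusted p = 0.801, edgeR). The other 36 members together took 0.391 to 0.756% of reads. Per unit of length, on the scale of the deposited RPKM, Igj (mm9 chr5:88948834-88956922) was the most abundant member at 1751 ± 1365 RPKM in OgaVav-Cre and 1232 ± 1019 RPKM in wildtype (SD, n = 3). The next most abundant, averaged over the 6 libraries, were Hsp90b1 (127 RPKM), Hspa5 (106 RPKM) and Xbp1 (89.5 RPKM), and the least abundant was Fkbp11 (1.38 RPKM).

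**Figure D1:**
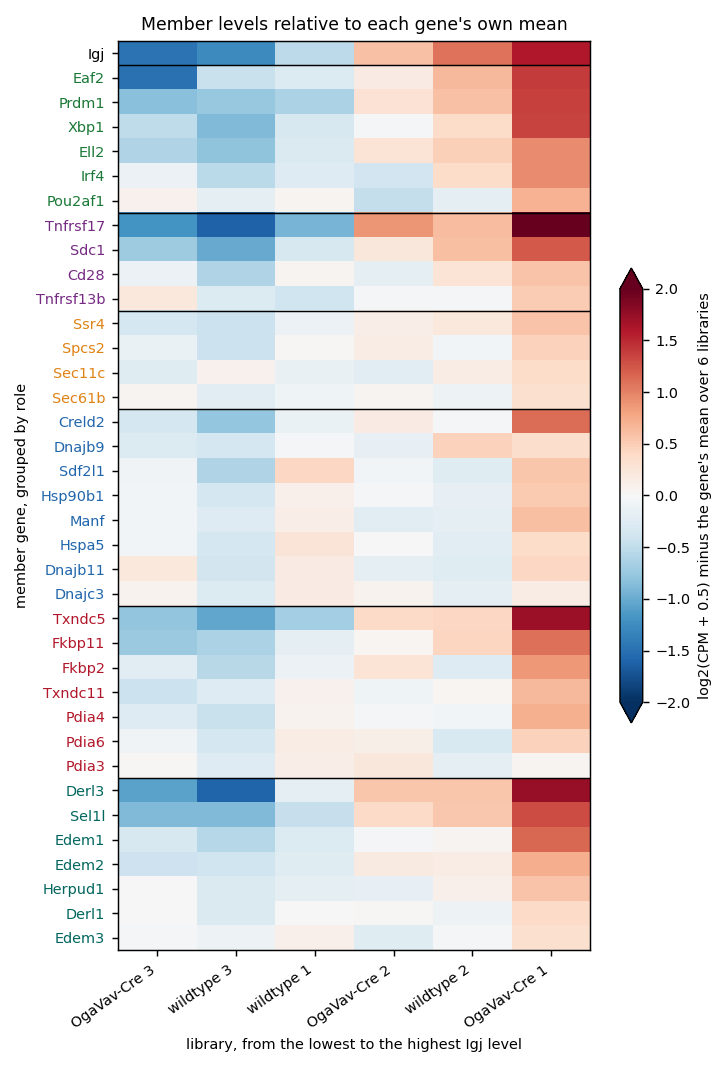
Color gives log2(CPM + 0.5) of each of the 37 members minus its own mean over the 6 libraries. Columns are libraries ordered by Igj and rows are genes grouped by role (label colors), each group sorted by its slope on Igj. Igj, Tnfrsf17, Derl3, Txndc5, Eaf2, Prdm1, Sel1l and Sdc1 run from blue to red across the columns, while Pdia3 and Dnajc3 stay near white.

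A slope on Igj was fitted for each locus with genotype in the model (edgeR quasi-likelihood test, Benjamini-Hochberg adjustment over all loci). The slope is the log2 change of a gene per doubling of Igj, so a gene that moved in proportion to Igj has a slope of 1 and a gene that ignored it has a slope of 0. All 37 members passed the filter on low counts, and 36 have a slope, since Igj is the yardstick. At an adjusted p below 0.05, 10 of the 36 rose with Igj and 0 fell, against 0.395% of the 22031 loci tested that rose and 0.599% that fell. Those that rose were Tnfrsf17, Derl3, Eaf2, Txndc5, Prdm1, Sel1l, Sdc1, Xbp1, Ell2 and Edem2. Positive slopes at an unadjusted p below 0.05 were found for 21 of 36 members and for 5.25% of all loci, and the median slope was 0.24 for the members and 0.0048 for all loci. All 36 slopes were above 0, or 33 of 36 with library totals alone in place of TMM scaling, and 26 of them were not called. DESeq2 called 15 members, the 10 above among them, and 270 of the 22031 loci as rising with Igj.

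The calls depended on single libraries. Without OgaVav-Cre replicate 3, the library lowest in Igj, 0 members were called by edgeR (lowest adjusted p = 0.0675), while the 10 genes had slopes of 0.28 to 1.12 and 17 members had a positive slope at an unadjusted p below 0.05. Over all loci, 15 of 22583 were called as rising in that fit, and 3.57% had an unadjusted p below 0.05 in either direction. Without OgaVav-Cre replicate 1, the library highest in Igj, 4 were called, and without wildtype replicate 2, the second highest, 5. Over all loci, 52 of 22688 and 40 of 23182 were called as rising in these fits. The counts were 11 without OgaVav-Cre replicate 2, with Irf4 and Edem1 among them, and 8 without wildtype replicate 1 or wildtype replicate 3. In the same order, 96 of 22751, 86 of 23283 and 59 of 22911 loci were called as rising. Tnfrsf17, Sdc1, Txndc5 and Sel1l were called in 5 of the 6 fits that leave out a library, Derl3 in 4, Prdm1, Eaf2 and Ell2 in 3, Xbp1 in 1 and Edem2 in 0. In mm9 the 10 loci are Tnfrsf17 (chr16:11313902-11320167), Derl3 (chr10:75356143-75358686), Eaf2 (chr16:36792970-36875425), Txndc5 (chr13:38591948-38620693), Prdm1 (chr10:44156981-44248307), Sel1l (chr12:93044483-93087597), Sdc1 (chr12:8778129-8800521), Xbp1 (chr11:5420662-5425896), Ell2 (chr13:75844932-75909809) and Edem2 (chr2:155527409-155555211).

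**Figure D2:**
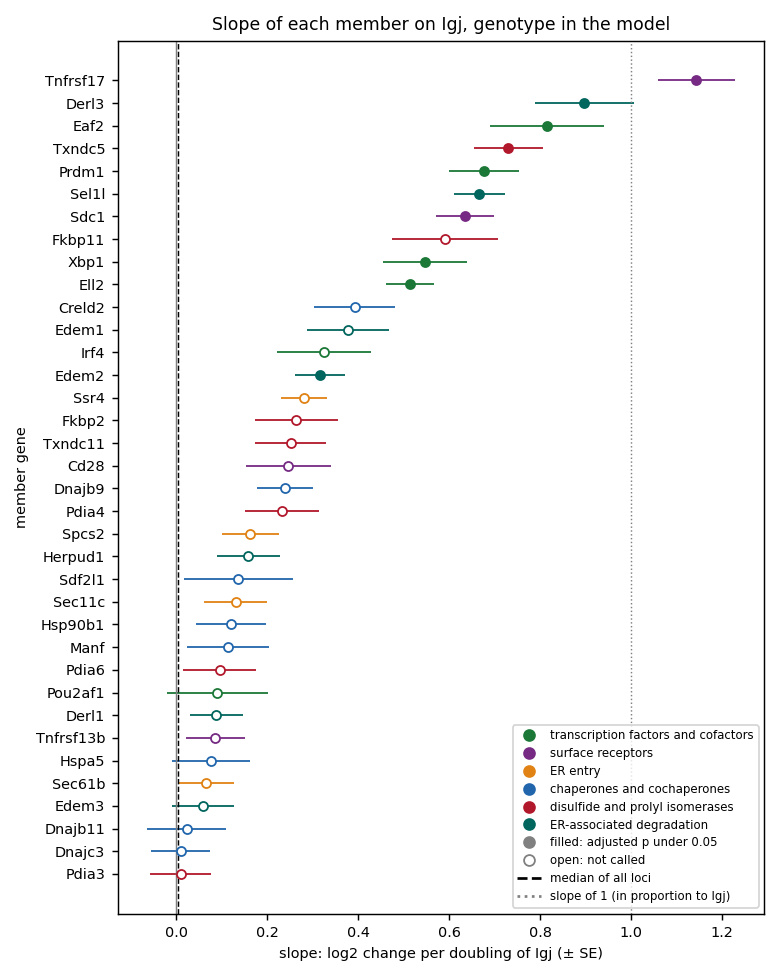
Points give the slope of each member on Igj (log2 change per doubling of Igj, bars ± SE, 6 libraries, genotype in the model), colored by role. Filled points passed an adjusted p of 0.05. The dashed line is the median of all loci and the dotted line a slope of 1. Slopes run from 0.0096 (Pdia3) to 1.14 (Tnfrsf17), and 10 points are filled.

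Among the 6 transcription factors and cofactors, 4 rose with Igj. Prdm1 stood at 60.4, 28.4 and 12.7 CPM in OgaVav-Cre replicates 1, 2 and 3 and at 14.8, 34.96 and 13.4 CPM in wildtype replicates 1, 2 and 3. Prdm1 encodes Blimp-1, the repressor that ends the B cell program, and its slope was 0.68 ± 0.077 (SE, adjusted p = 0.00869). Xbp1 stood at 763, 291 and 209.9 CPM in OgaVav-Cre replicates 1, 2 and 3 and at 239.6, 385 and 162 CPM in wildtype replicates 1, 2 and 3. Xbp1, the UPR factor that plasma cells need for secretion, had a slope of 0.55 ± 0.092 (SE, adjusted p = 0.0404). Its highest value was in the library highest in Igj and its lowest in wildtype replicate 3. Ell2, an elongation factor that favors the secreted form of the immunoglobulin heavy chain mRNA, measured 99.3, 62.2 and 33.7 CPM in the OgaVav-Cre libraries and 42.2, 72.2 and 29.2 CPM in the wildtype libraries, in nearly the order of Igj, with a slope of 0.51 ± 0.053 (SE, adjusted p = 0.00693). Eaf2, a partner of the ELL factors, reached 22.7, 9.42 and 2.63 CPM in the OgaVav-Cre libraries and 6.79, 13.3 and 6.01 CPM in the wildtype libraries. The slope of Eaf2 was 0.82 ± 0.12 (SE, adjusted p = 0.0276), on the lowest counts of this group.

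The remaining factors of this group are also at work in B cells before they become plasma cells. Irf4 had a slope of 0.33 ± 0.10 (SE, adjusted p = 0.265) and Pou2af1, the octamer coactivator that B cells use, one of 0.091 ± 0.11 (SE, adjusted p = 0.814). Pou2af1 was lowest in OgaVav-Cre replicate 2 (160.2 CPM), the third highest library in Igj, and highest in OgaVav-Cre replicate 1 (361 CPM). Its line changed sign with the library left out, from -0.13 without OgaVav-Cre replicate 1 to 0.16. A second Irf4 locus on the opposite strand lies within the one used, and Eaf2 lies over Iqcb1 on the opposite strand. The sources used here do not say whether reads were counted by strand, so the counts of these pairs may share reads.

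The surface receptors split. Tnfrsf17 stood at 33.8, 12.9 and 2.66 CPM in OgaVav-Cre replicates 1, 2 and 3 and at 3.33, 10.7 and 1.86 CPM in wildtype replicates 1, 2 and 3. Tnfrsf17 encodes BCMA, a receptor that keeps plasma cells alive, and it had the steepest slope of all members, 1.14 ± 0.085 (SE, adjusted p = 0.0021), and the widest range, 18.2-fold. Its lowest value, in wildtype replicate 3, rests on 44 reads. Sdc1 stood at 157, 78.5 and 40.6 CPM in OgaVav-Cre replicates 1, 2 and 3 and at 53.5, 102 and 32.9 CPM in wildtype replicates 1, 2 and 3. Sdc1 (syndecan-1, CD138), the surface marker used to sort plasma cells, had a slope of 0.64 ± 0.063 (SE, adjusted p = 0.00614). By contrast Tnfrsf13b (TACI), the related receptor that B cells also carry, measured 148, 101 and 120.3 CPM in the OgaVav-Cre libraries and 78.6, 101 and 85.7 CPM in the wildtype libraries, and its second highest value was in the library lowest in Igj. The slope of Tnfrsf13b was 0.086 ± 0.066 (SE, adjusted p = 0.678). Cd28, a costimulatory receptor of T cells that plasma cells also use, measured 28.4, 16.5 and 17.4 CPM in the OgaVav-Cre libraries and 19.7, 23.03 and 12.3 CPM in the wildtype libraries, with a slope of 0.25 ± 0.094 (SE, adjusted p = 0.35). In the table Cd28 overlaps another locus on its own strand.

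No member of ER entry was called by edgeR, 2 had a positive slope at an unadjusted p below 0.05, and DESeq2 called 1, Ssr4. Ssr4, a subunit of the translocon-associated complex, came closest and ran in nearly the order of Igj, at 155, 115 and 81.4 CPM in the OgaVav-Cre libraries and 95.7, 120.3 and 77.3 CPM in the wildtype libraries. It had a slope of 0.28 ± 0.050 (SE, adjusted p = 0.0505). Spcs2 and Sec11c, subunits of the signal peptidase that trims the leader from each chain, had slopes of 0.16 ± 0.062 (SE, adjusted p = 0.349) and 0.13 ± 0.069 (SE, adjusted p = 0.524). Spcs2 measured 237, 189 and 157 CPM in the OgaVav-Cre libraries and 173, 164 and 127 CPM in the wildtype libraries. Sec11c measured 169, 112 and 109.9 CPM in the OgaVav-Cre libraries and 118, 145 and 139 CPM in the wildtype libraries. The third highest value of Sec11c was in wildtype replicate 3, the second lowest library in Igj. Sec61b, of the channel itself, measured 37.3, 31.02 and 30.8 CPM in the OgaVav-Cre libraries and 27.9, 27.6 and 25.3 CPM in the wildtype libraries, a range of 1.48-fold. Every OgaVav-Cre library stood above every wildtype library for Sec61b, Tnfrsf13b and Derl1, 3 of the 37 members, against 7.5% of the 22032 loci tested. With CPM by library totals alone this held for 1 member, Sec61b, and for 3.75% of the loci tested.

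The 8 chaperones and cochaperones gave 0 calls by edgeR on Igj, with 2 at an unadjusted p below 0.05 and a median slope of 0.12. DESeq2 called 2 of them, Creld2 and Dnajb9. Creld2, an ER stress gene with disulfide isomerase activity, measured 90.9, 46.7 and 32.7 CPM in the OgaVav-Cre libraries and 38.1, 40.7 and 24.3 CPM in the wildtype libraries, and its slope was 0.39 ± 0.088 (SE, adjusted p = 0.118). Dnajb9, a BiP cochaperone, was highest in wildtype replicate 2, at 77.1, 54.3 and 49.98 CPM in the OgaVav-Cre libraries and 59.8, 83.3 and 47.4 CPM in the wildtype libraries, with a slope of 0.24 ± 0.062 (SE, adjusted p = 0.17). The major chaperones were abundant in every library. Hsp90b1 (Grp94) stood at 904, 612 and 607 CPM in the OgaVav-Cre libraries and 674, 563 and 493 CPM in the wildtype libraries, with a slope of 0.12 ± 0.077 (SE, adjusted p = 0.603). Hspa5, which encodes BiP itself, measured 708, 549 and 527 CPM in the OgaVav-Cre libraries and 655, 467 and 429 CPM in the wildtype libraries, second highest in wildtype replicate 1, the third lowest library in Igj. Its slope was 0.077 ± 0.085 (SE, adjusted p = 0.79). The remaining members of this group, Dnajb11, Dnajc3, Sdf2l1 and Manf, had slopes of 0.010 (Dnajc3) to 0.14 (Sdf2l1). Hsp90b1, Hspa5, Dnajc3 and Creld2 are the genes of this group with the element printed above. Manf spans several other listed loci on both strands, and Hsp90b1 overlaps a locus on the opposite strand.

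Of the 7 disulfide and prolyl isomerases, Txndc5 rose with Igj. Txndc5 stood at 1192, 475 and 211 CPM in OgaVav-Cre replicates 1, 2 and 3 and at 227, 487 and 177 CPM in wildtype replicates 1, 2 and 3. Txndc5 (ERp46), a disulfide isomerase abundant in plasma cells, had a slope of 0.73 ± 0.077 (SE, adjusted p = 0.00695). Fkbp11, a prolyl isomerase of secretory cells, had the next steepest slope, 0.59 ± 0.12 (SE, adjusted p = 0.0741), at low levels of 9.62, 4.35 and 2.33 CPM in the OgaVav-Cre libraries and 3.61, 5.86 and 2.54 CPM in the wildtype libraries, and it ranked the libraries in the same order as Igj. Txndc11, a partner of the Edem proteins, measured 123, 73.5 and 57.9 CPM in the OgaVav-Cre libraries and 83.4, 80.6 and 65.02 CPM in the wildtype libraries, with a slope of 0.25 ± 0.077 (SE, adjusted p = 0.249). Fkbp2 measured 28.5, 18.8 and 13.02 CPM in the OgaVav-Cre libraries and 14.2, 12.8 and 10.4 CPM in the wildtype libraries, with a slope of 0.26 ± 0.092 (SE, adjusted p = 0.312). The slopes of the general disulfide isomerases were 0.23 ± 0.081 (SE, adjusted p = 0.314) for Pdia4, 0.096 ± 0.081 (SE, adjusted p = 0.709) for Pdia6 and 0.0096 ± 0.067 (SE, adjusted p = 0.976) for Pdia3 (ERp57). Pdia3 was second lowest in wildtype replicate 2 (272 CPM), the second highest library in Igj. Pdia6 overlaps another listed locus on its own strand along its whole length.

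ER-associated degradation, which returns misfolded chains to the cytosol, held 3 calls among 7 members. Sel1l stood at 604, 319.9 and 133 CPM in OgaVav-Cre replicates 1, 2 and 3 and at 177, 356 and 132 CPM in wildtype replicates 1, 2 and 3. Sel1l is the scaffold of the Hrd1 ubiquitin ligase, and it ran in nearly the order of Igj, with a slope of 0.67 ± 0.056 (SE, adjusted p = 0.00317). Derl3 stood at 63.5, 27.6 and 8.68 CPM in OgaVav-Cre replicates 1, 2 and 3 and at 16.4, 27.9 and 5.84 CPM in wildtype replicates 1, 2 and 3. Derl3, a derlin of the retrotranslocation complex found mainly in secretory cells, had a slope of 0.90 ± 0.11 (SE, adjusted p = 0.011) and a 10.9-fold range. Its paralog Derl1, present in most cells, measured 115, 89.3 and 88.1 CPM in the OgaVav-Cre libraries and 87.6, 81.6 and 72.1 CPM in the wildtype libraries, with a slope of 0.089 ± 0.058 (SE, adjusted p = 0.612). Edem2, which starts the mannose trimming that marks chains for disposal, measured 129.8, 89.1 and 58.7 CPM in the OgaVav-Cre libraries and 66.6, 87.5 and 59.7 CPM in the wildtype libraries, with a slope of 0.32 ± 0.054 (SE, adjusted p = 0.044). Edem1 and Edem3, which act later in that trimming, had slopes of 0.38 ± 0.090 (SE, adjusted p = 0.141) and 0.059 ± 0.068 (SE, adjusted p = 0.799), and Herpud1, a membrane adaptor of the ligase, 0.16 ± 0.070 (SE, adjusted p = 0.426).

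Slopes also varied within gene families. The slope was 0.90 for Derl3 and 0.089 for Derl1, and 1.14 for Tnfrsf17 and 0.086 for Tnfrsf13b. It was 0.73 for Txndc5, 0.25 for Txndc11, 0.23 for Pdia4, 0.096 for Pdia6 and 0.0096 for Pdia3. For Edem1, Edem2 and Edem3 it was 0.38, 0.32 and 0.059, and of these edgeR called Edem2 alone. Differences between slopes of 2 genes, or between roles, were not tested. The slopes called were spread over 4 of the 7 roles, with 4 of 6 transcription factors, 2 of 4 receptors, 1 of 7 isomerases and 3 of 7 degradation genes. Antibody assembly, the role of Igj alone, had no slope to test.

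The same relation was described without a model by lines through the CPM of the 6 libraries. For Txndc5 the line rose by 102 CPM per 1000 CPM of Igj, for Xbp1 by 58.6 CPM per 1000 CPM of Igj, for Sel1l by 51.1 CPM per 1000 CPM of Igj, for Derl3 by 5.70 CPM per 1000 CPM of Igj and for Tnfrsf17 by 3.21 CPM per 1000 CPM of Igj. Where the line met an Igj of 0, an extrapolation below the lowest library, it stood at 1.72% of the gene's mean for Txndc5, 16.02% for Prdm1, 20.9% for Sel1l and 23.9% for Xbp1, and below 0 for Tnfrsf17 and Derl3. It stood at 40.3% for Ell2, 66.5% for Ssr4 and 88.6% for Hspa5. In bulk RNA, fewer cells of a type and less RNA per cell cannot be told apart.

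**Figure D3:**
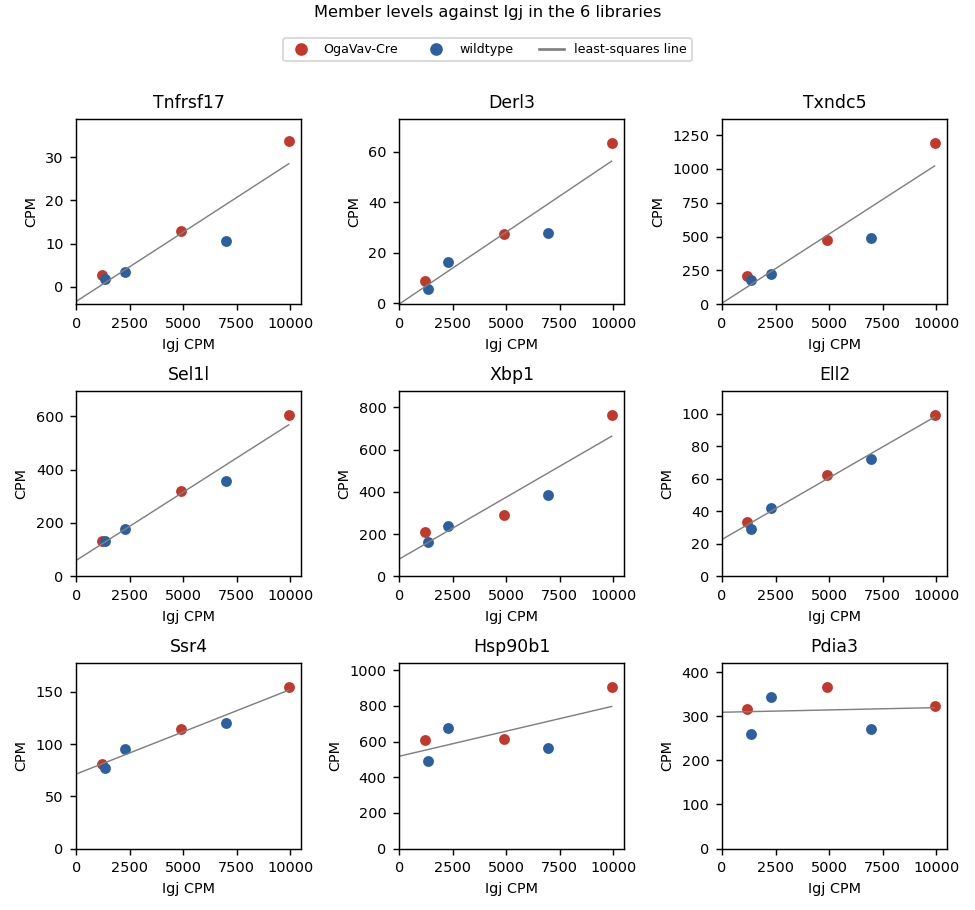
Each panel plots the CPM of 1 member against the CPM of Igj in the 6 libraries (red, OgaVav-Cre; blue, wildtype), with the least-squares line through all 6. Tnfrsf17, Derl3 and Txndc5 climb from the lower left corner. Sel1l, Xbp1, Ell2 and Ssr4 climb from a higher base, and the lines of Hsp90b1 and Pdia3 climb little against their level. OgaVav-Cre replicate 1 lies above the line for Tnfrsf17 and Txndc5, and wildtype replicate 2 lies below it.

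Correlations of log2(CPM + 0.5) with Igj were computed as a second description. Pearson's r was at least 0.8 for 16 of 36 members and for 4.31% of the loci tested. The highest among the members were Ell2 (r = 0.99, Spearman's rho = 0.94), Sel1l (r = 0.99, rho = 0.94), Sdc1 (r = 0.98, rho = 0.94), Ssr4 (r = 0.98, rho = 0.94) and Prdm1 (r = 0.97, rho = 1.00). By exact permutation over the 720 pairings of 6 libraries, two-sided, the p of r was 0.00139 for Prdm1 and Fkbp11, the smallest that 720 pairings can give, 0.00278 for Ssr4 and Sel1l and 0.00417 for Ell2 and Sdc1. The exact permutation p of rho was 0.00278 for Prdm1 and 0.0167 for Ell2, Sel1l, Sdc1 and Ssr4. Adjusted over the 22031 loci, the lowest permutation p of r was 0.593, so none passed. In the 4 libraries left without those farthest from the median of Igj, OgaVav-Cre replicates 1 and 3, r was 1.00 for Ell2, 0.99 for Sel1l, 0.99 for Sdc1, 0.98 for Ssr4 and 0.98 for Prdm1, and 16 members were at 0.8 or above. These were not the same 16. In the 4 libraries Dnajb9 (0.78) and Txndc11 (0.54) fell below 0.8, and Tnfrsf13b (0.82) and Herpud1 (0.87) rose above it. At the other end, over all 6 libraries, r was 0.19 for Pdia3, 0.19 for Dnajb11 and 0.20 for Dnajc3. With CPM by library totals alone it was -0.26, -0.11 and -0.30. By that scaling 14 of 36 members had an r of at least 0.8. Libraries of the 2 genotypes are pooled in these values. The fitted slopes hold genotype constant.

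The genotypes were then compared, the question for which the libraries were made. The fitted difference of OgaVav-Cre over wildtype was above 0 for 35 of 37 members, with a median log2 difference of 0.33 against 0.0041 for all loci. No member passed the cutoffs (adjusted p below 0.05 and a log2 difference past 1), against 0.0318% of all loci, and the lowest adjusted p was 0.428 (edgeR). At an unadjusted p below 0.05 there were 2 of 37, Tnfrsf13b and Fkbp2, against 10.6% of all loci. DESeq2 gave 4 of 37 at that level, against 10.5% of all loci, and 0 past the cutoffs. The size depended on single libraries. Without OgaVav-Cre replicate 1 the median of the members was 0.027, Igj differed by -0.22 and 0 had an unadjusted p below 0.05, against 6.51% of all loci. Without wildtype replicate 3 the median was 0.20 and 0 reached that level, against 5.39% of all loci. Without OgaVav-Cre replicate 3 the median was 0.46 and 11 of 37 did, against 14.3% of all loci. In each of these fits 0 members were past the cutoffs.

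For the genes with a called slope the differences were within 2 SE of 0. The log2 difference was 1.64 ± 0.91 (SE) for Tnfrsf17, 1.08 ± 0.62 for Txndc5, 0.99 ± 0.74 for Derl3, 0.68 ± 0.50 for Xbp1, 0.68 ± 0.58 for Prdm1, 0.67 ± 0.55 for Sel1l, 0.56 ± 0.54 for Sdc1, 0.44 ± 0.43 for Ell2, 0.41 ± 0.68 for Eaf2 and 0.38 ± 0.28 for Edem2. Genes with little slope had smaller errors. Tnfrsf13b differed by 0.48 ± 0.17, Sec61b by 0.29 ± 0.14, Derl1 by 0.28 ± 0.15, Spcs2 by 0.33 ± 0.19, Hsp90b1 by 0.30 ± 0.20 and Sec11c by -0.039 ± 0.19. Between these lay Creld2 (0.72 ± 0.37), Fkbp2 (0.69 ± 0.29), Fkbp11 (0.44 ± 0.54), Ssr4 (0.26 ± 0.25), Cd28 (0.18 ± 0.29), Txndc11 (0.15 ± 0.27) and Dnajb9 (-0.071 ± 0.24). None of these differences was past the cutoffs.

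At equal Igj, with Igj held as a covariate, the median genotype difference of the members was 0.20, against -0.00031 for all loci. The fitted difference was above 0 for 32 of 36 members. No member passed the cutoffs, against 0.118% of all loci, and the lowest adjusted p was 0.247 (edgeR). At an unadjusted p below 0.05 there were 4 of 36 (11.1%), against 11.7% of all loci. These 4 were Tnfrsf17, Txndc5, Fkbp2 and Tnfrsf13b, all with differences above 0. DESeq2 gave 5 of 36 at that level, against 12.7% of all loci, and 0 past the cutoffs. By edgeR the count depended on single libraries. Without OgaVav-Cre replicate 2 it was 11 of 36 (30.6%), against 10.3% of all loci. Without wildtype replicate 1 it was 12 (33.3%), against 17.7%. It was 2 without OgaVav-Cre replicate 1 (all loci 9.26%) and 1 without OgaVav-Cre replicate 3 (6.17%). It was 2 without wildtype replicate 2 (5.23%) and 3 without wildtype replicate 3 (7.03%). In each of these fits 0 members were past the cutoffs. The difference was 0.85 ± 0.19 (SE, adjusted p = 0.247) for Tnfrsf17 and 0.54 ± 0.18 (adjusted p = 0.356) for Txndc5. Tnfrsf13b and Fkbp2 kept differences of 0.44 ± 0.16 and 0.50 ± 0.21 (adjusted p = 0.376 and 0.426). For the other genes with a called slope the difference shrank, to 0.37 ± 0.24 for Derl3, 0.33 ± 0.22 for Xbp1, 0.23 ± 0.18 for Prdm1, 0.23 ± 0.13 for Sel1l, 0.20 ± 0.15 for Sdc1, 0.17 ± 0.12 for Ell2 and 0.17 ± 0.13 for Edem2, and it was -0.35 ± 0.29 for Eaf2. The errors of these genes were smaller than without Igj in the model. These genes were picked by their slope in the same fit, so smaller errors are no separate result. With a slope and an Igj difference both above 0, the shrinkage follows from the fit as well. The lowest and highest of the other differences at equal Igj were -0.17 ± 0.14 (Dnajb9) and 0.44 ± 0.21 (Creld2). A p that misses the threshold does not show that the genotypes are alike, and with 3 mice per genotype these intervals allow differences of the size shown.

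**Figure D4:**
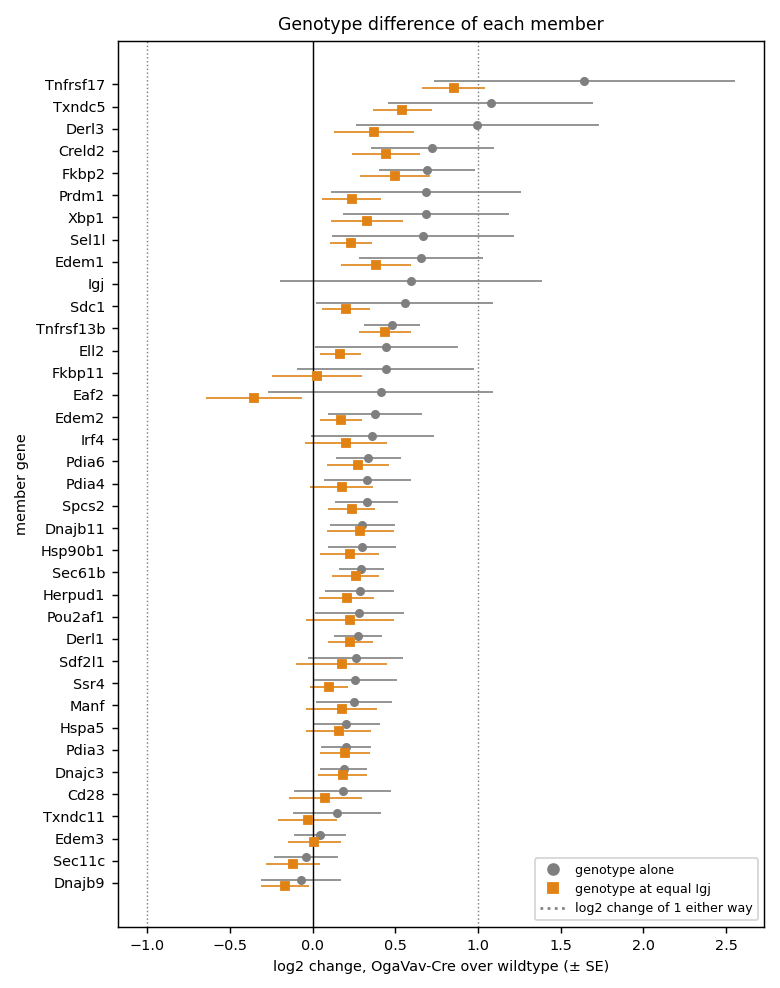
Points give the log2 difference of OgaVav-Cre over wildtype for each member (bars ± SE, n = 3 mice per genotype), from genotype alone (grey circles) and with Igj held equal (orange squares, 36 members). Dotted lines mark a log2 difference of 1 either way. Squares lie closer to 0 than circles for the genes with a called slope, and their bars are shorter. These genes were picked by their slope in the fit that gave the squares.

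Immunoglobulin genes rose with Igj too. Ighm had a slope of 1.00 ± 0.074 and Igkc of 0.97 ± 0.060 (SE, adjusted p = 0.0021 and 0.00103), and together they took 1.05 to 9.0% of a library. Of the 6 constant genes listed, 4 rose with Igj by edgeR. Igha, the IgA heavy chain, listed as Igh-2, stood apart by genotype at equal Igj, by 1.54 (adjusted p = 0.0171), at 9599, 4345 and 1038 CPM in the OgaVav-Cre libraries and 589, 2733 and 360.2 CPM in the wildtype libraries. Immunoglobulin loci overlap one another in the table and may share reads. With the summed share of Ighm and Igkc in place of Igj as the covariate, the same 10 members were called along with Igj. Ighm and Igkc moved nearly in proportion to Igj, so this covariate is close to Igj and the calls are no separate result. Of the 87 loci that rose with Igj, 44 lay in the immunoglobulin regions, 10 were members and 33 were neither. Among the 33, those with the smallest p were Oosp1 (slope 1.09), Ggh (0.58), Pycr1 (0.81), Fut1 (1.10), Pls1 (0.71), Gpr55 (0.80), Chst1 (0.95), LOC100505089 (0.81, a locus that overlaps Sspo), C630004H02Rik (0.59) and Slc3a2 (0.56), the last a subunit of amino acid transporters.

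Other lists of the secretory pathway held few calls, and their difference from the members was not tested. Of 14 UPR sensors and transcription factors none was called by edgeR, 2 had a positive slope at an unadjusted p below 0.05, and the median slope was 0.024. The smallest p were those of Creb3l2 (0.30), Trib3 (0.29) and Ddit3 (0.11). Of 18 other ER entry genes, Spcs1, a further signal peptidase subunit, rose with Igj, with a slope of 0.35 ± 0.054 (adjusted p = 0.0279). Tram2 (0.41) and Srpr (0.18) followed and were not called by edgeR. N-glycosylation and the calnexin cycle (14 genes), ER to Golgi transport (15 genes) and other ER folding and oxidation (10 genes) gave 0 calls by edgeR, with 1, 1 and 2 positive slopes at an unadjusted p below 0.05 and median slopes of 0.10, 0.055 and 0.053. Their leading genes were Lman1 (0.15), Mcfd2 (0.14) and Dad1 (0.12), then Kdelr1 (0.17), Sec24a (0.15) and Kdelr2 (0.11), and Prdx4 (0.28), Sil1 (0.22) and Ppib (0.10). DESeq2 called Creb3l2, Spcs1, Tram2 and Prdx4 in these 5 lists. None of their genes passed the genotype cutoffs, with or without Igj held equal, by edgeR or DESeq2.

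Markers of other cells also moved with Igj, and their part in the slopes of the members was not tested. All 12 B cell markers had negative slopes, and 4 of them fell as Igj rose, among them Ms4a1 (-0.999), Cd22 (-1.33) and Pax5 (-1.08). Their summed level was 349.8 to 1624 CPM in the OgaVav-Cre libraries, highest in replicate 3, and 351 to 1272 CPM in the wildtype libraries. The 10 plasmacytoid dendritic cell markers, of which Spib (-1.06) and Pacsin1 (-1.05) fell, summed to 507 to 2311 CPM in the OgaVav-Cre libraries and 548 to 959 CPM in the wildtype libraries, and the highest value was that of OgaVav-Cre replicate 3, the library lowest in Igj. T and NK cell markers (7 genes, 0 called by edgeR, 6 with a negative slope at an unadjusted p below 0.05) summed to 61.6 to 159.5 CPM in the OgaVav-Cre libraries and 51.04 to 87.3 CPM in the wildtype libraries, again highest in that library. The 10 LSK markers, Kit and Flt3 among them, gave 0 calls by edgeR and 9 positive slopes at an unadjusted p below 0.05. The median slope was 0.32 for the LSK markers, against 0.24 for the members. For the other marker lists it ran from -0.80 (T and NK cell) to -0.31 (neutrophil and monocyte). The LSK markers summed to 1153 to 2459 CPM in the OgaVav-Cre libraries, lowest in replicate 3, and 1521 to 2695 CPM in the wildtype libraries. Among the leading LSK markers were Flt3 (0.30) and Ly6a (0.46), which encodes Sca-1. Neutrophil and monocyte markers (10 genes) summed to 696 to 2809 CPM in the OgaVav-Cre libraries and 1138 to 1726 CPM in the wildtype libraries. The highest of these sums was again that of OgaVav-Cre replicate 3. Basophil and mast cell markers (6 genes) summed to 107 to 140.4 CPM in the OgaVav-Cre libraries and 138 to 171 CPM in the wildtype libraries. Both lists gave 0 calls by edgeR, with 2 and 2 genes at an unadjusted p below 0.05. Ly6g was the only marker at 0 reads in a library. DESeq2 called 6 B cell, 4 plasmacytoid dendritic cell and 5 T and NK cell markers and 1 neutrophil and monocyte marker with negative slopes, 4 LSK markers with positive slopes and 0 of the basophil and mast cell markers. Outside the lists the steepest falls by p were those of Cr2 (-1.40), Scd1 (-1.58), Cxcr5 (-1.33), Tlr9 (-1.20) and H2-Aa (-0.87). Cr2 and Cxcr5 are genes of mature B cells, and H2-Aa encodes an MHC class II chain of antigen-presenting cells.

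**Figure D5:**
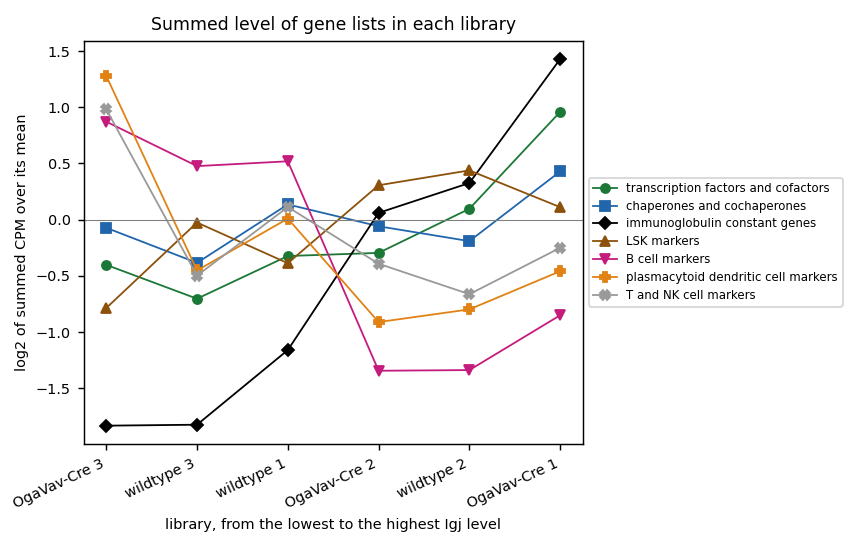
Lines join the summed CPM of each gene list, as log2 over its mean across the 6 libraries, with libraries ordered by Igj. Immunoglobulin constant genes and the transcription factors among the members rise to the right, B cell and plasmacytoid dendritic cell markers are lower in the 3 libraries on the right than in the 3 on the left, and the chaperones stay within 0.5 of their mean on the log2 scale. OgaVav-Cre replicate 3, at the left, is the highest for B cell, plasmacytoid dendritic cell and T and NK cell markers and the lowest for LSK markers.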

How the data were processed

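Poly(A) RNA-Seq of sorted LSK cells was analyzed, with 1 library per mouse. The authors aligned single-end 50 bp reads to mm9 and used Genomatix for the counts per locus. The submitters' processing notes also name CASAVA 1.8.2. Counting by strand is not given in the sources used here. The deposited counts are raw reads per locus, and the deposited RPKM were made by the authors from those counts and used only for levels per length. The authors' comparison columns (fold changes and p-values) and 6 per-library columns of normalized expression were not used. The members and the 12 other lists were chosen with earlier results of these data known, as were the motifs.

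The tests used edgeR 4.0.16 (R 4.3.3), with TMM scaling, the filterByExpr filter by genotype, and quasi-likelihood fits of genotype and of genotype plus log2 Igj. The covariate, log2 of the CPM of Igj with 0.5 added to its reads before scaling, was centered. CPM are TMM-scaled. The cutoffs were an adjusted p-value below 0.05 and, for genotype, a log2 difference past 1. SE were derived from the test statistic. Alternatives were DESeq2 1.42.0, other scalings, no filter, another covariate and each library left out. Scripts were tested on simulated data. p-values measure the spread between these mice. Python 3.11.15 (pandas 2.3.3, scipy 1.17.1, numpy 2.4.6) gave the correlations, lines and promoter searches, and matplotlib 3.10.9 the figures.

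Members named in full were Igj and, per role, the 3 with the smallest slope p and those with the smallest p for genotype and for genotype at equal Igj. For other lists the 3 smallest slope p were named, except that some single-gene values are not reported here, and outside them the 10 rising and 5 falling loci with the smallest p.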

Additional observations from a re-analysis of the deposited data

How the results depend on the processing

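Calls over all loci moved with the tool and the filter. With no filter on low counts, 21 loci were called for genotype, 902 for the slope on Igj and 195 for genotype at equal Igj. DESeq2's Wald test called 114, 774 and 199, against 7, 219 and 26. The slope without the genotype term gave 130 loci, and the share of Ighm and Igkc in place of Igj gave 139 for the slope and 17 for genotype at equal Igj. With each library left out the counts ran from 3 to 9, from 17 to 225 and from 6 to 30. Members called for the slope numbered 9 to 15 on all 6 libraries, and 0 to 11 with a library left out: 4 without OgaVav-Cre replicate 1, 5 without wildtype replicate 2 and 0 without OgaVav-Cre replicate 3. No setting called a member for genotype, with or without Igj. Every OgaVav-Cre library stood above every wildtype library for 3 members, against 7.5% of all loci. With library totals alone, an alternative chosen after seeing the data, this held for 1 member, against 3.75% of all loci.

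Some signs turned. Library totals alone put the median genotype difference of all loci at -0.11, against 0.0041, and at -0.10 with Igj held equal, while the median of the members was 0.20 and 0.13. By the same scaling, slopes were -0.036 for Dnajb11, -0.046 for Dnajc3 and -0.045 for Pdia3, and genotype differences at equal Igj -0.00073 for Cd28 and -0.013 for Fkbp11 (-0.070 with the share of Ighm and Igkc). With a library left out, slopes ran from -0.13 to 0.16 for Pou2af1, -0.00046 to 0.15 for Hspa5, -0.090 to 0.091 for Dnajb11, -0.029 to 0.043 for Dnajc3, -0.049 to 0.19 for Manf, -0.042 to 0.045 for Pdia3 and -0.042 to 0.092 for Edem3. Genotype differences ran from -0.22 to 1.56 for Igj, -0.068 to 1.07 for Xbp1, -0.040 to 1.27 for Prdm1, -0.54 to 0.89 for Eaf2, -0.077 to 1.10 for Sdc1, -0.11 to 0.39 for Cd28, -0.27 to 0.071 for Sec11c, -0.28 to 0.18 for Dnajb9, -0.21 to 0.36 for Txndc11 and -0.26 to 0.82 for Fkbp11. At equal Igj they ran from -0.73 to 0.056 for Eaf2, -0.25 to 0.24 for Cd28, -0.23 to 0.075 for Txndc11 and -0.15 to 0.16 for Fkbp11.

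The labels do not say whether libraries with the same replicate number were paired. Their deviations from the group means correlated at -0.089, 0.31 and 0.38 for numbers 1, 2 and 3. Between libraries with unlike numbers the correlations ran from -0.44 to 0.26. With the replicate block, 6 loci and 0 members were called for genotype, and 4 of the 6 were among the 7 of the fit without it. The cause of these shifts was not tested. Depth limits low genes such as Tnfrsf17, Fkbp11 and Eaf2 most, and 3 mice per genotype limit every comparison. The lowest read counts of these genes were 44 and 60 (Tnfrsf17 and Fkbp11, wildtype replicate 3) and 72 (Eaf2, OgaVav-Cre replicate 3).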

Other observations

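The locus 2010001M09Rik, which RefSeq gives as an older symbol of Mzb1, an ER cochaperone of the immunoglobulin heavy chain, was outside the set because its symbol differs. It was looked at after the other values were seen. It held 158, 88.6 and 63.4 CPM in OgaVav-Cre replicates 1, 2 and 3 and 65.7, 99.2 and 45.98 CPM in wildtype replicates 1, 2 and 3, with a slope on Igj of 0.42 ± 0.064 (SE, edgeR adjusted p = 0.0265). Its genotype difference at equal Igj was 0.33 (log2, adjusted p = 0.436).

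Ern1, which encodes the IRE1 kinase that splices the Xbp1 mRNA, was singled out after its values were seen. It was at 171, 167 and 119 CPM in the OgaVav-Cre libraries and 228, 245 and 321 CPM in the wildtype libraries. The genotype difference at equal Igj was -0.84 ± 0.20 (log2, SE, edgeR adjusted p = 0.265) and did not pass the threshold. Over the 14 UPR sensors and transcription factors the median genotype difference was 0.031, and 8 of the 14 were above 0.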
